A study of Mus musculus with 18 samples.

Results

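Regulatory T cells (Treg) resident in visceral fat were compared with Treg from lymph nodes on 6 of the 18 arrays of the series, 3 arrays titled as fat CD4 Treg cells and 3 titled as lymph node Treg. Fat Treg came from the epididymal abdominal fat of male C57Bl/6 mice aged 25 to 35 weeks, with 8 to 10 mice pooled per array, and were sorted as B220-, CD11b-, CD8a-, CD4+, TCRb+ and CD25+. Lymph node Treg came from pooled cervical, inguinal and mesenteric nodes of C57BL/6 mice aged 32 to 36 weeks, with 3 to 6 mice per array, and were sorted on the same markers without TCRb. Their sex is not given in the sources used here. No genotype beyond the strain is given for either group, and both were defined by CD25 and not by Foxp3. Conventional CD4 T cells (Tconv, the CD25- fraction of the same sorts) from fat and lymph nodes, again 3 arrays each, served as the reference for tissue differences shared by both cell types. The other 6 arrays held thymic cells and entered only the normalization and the estimate of spread. With 3 arrays per group the precision is limited, and p-values measure only the spread between these pools.

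Treg restrain immune responses and depend on the transcription factor Foxp3 and on the interleukin-2 receptor, of which CD25 is the alpha chain. Those of visceral fat are known as a distinct population that makes interleukin-10, carries chemokine receptors for inflamed tissue and uses PPARgamma, the nuclear receptor that also drives adipocyte formation. Lymph node Treg, in contrast, recirculate through receptors such as CCR7. Preparing cells from solid tissue is known to induce immediate early and heat shock genes, and RNA of fibroblasts, adipocytes, vessels and macrophages can be carried through a sort.

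Values are the intensities deposited by the authors, put on 1 scale by quantile normalization of their log2 values over all 18 arrays. They are printed in replicate order. One probe set stood for each gene, 12258 genes were tested with limma, and a gene was called at a Benjamini-Hochberg adjusted p under 0.05. Differences are log2 values, fat minus lymph node, and ± gives their standard error from the fit. Where a gene is said to rise or fall by a value, the value is this log2 difference and the gene was called, and 1 log2 unit is a 2-fold change. The median intensity of all values was 65.5, and a value below it has no detection call in these data, so the size of a fold change from such a value is less certain than its direction.

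In all, 4329 genes were called, 1969 higher in fat Treg (16.1% of those tested) and 2360 lower (19.3%). Of these, 819 were higher and 867 lower by at least 2-fold, and 58 were higher and 14 lower by at least 16-fold. Fat and lymph node arrays did not overlap for 50.6% of all genes tested. The balance of directions depended on the scale: fat arrays were deposited with higher medians (76.9 to 82.2 over fat Treg and Tconv, against 57.9 to 63.0 in lymph nodes), and on the deposited scale the median gene was 0.37 log2 units higher in fat and 83.2% of calls were higher, against 45.5% here. Directions below are therefore relative to the median gene, which differed by -0.01. Fat Treg 1 stood apart, with summed fibroblast markers of 20962 against 9852 and 10219 on the other fat Treg arrays, and without it 1560 genes were called higher and 1859 lower. Lymph node Treg 3 also stood apart, correlating with the other arrays of its group at 0.968 and 0.975 over genes, where those correlated at 0.989. Without it the total of calls was 4188. Within pairs of fat and lymph node arrays from the same run of array file numbers (fat Treg 3 with lymph node Treg 1, 2 with 2, and 1 with 3), list medians are given where they bear on a result.

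The labels were checked on the genes that define the cells. Foxp3, the lineage factor of Treg, read 1364, 1367 and 1214 on the fat Treg arrays and 974, 936 and 1005 on the lymph node Treg arrays. All 3 fat values lay above all 3 lymph node values, yet the difference of 0.43 ± 0.27 did not pass the limma test (adjusted p = 0.23). It was called when only these 6 arrays were fitted and on the deposited scale. Tconv of both tissues were far lower, at 53.7, 116 and 57.3 in fat and 38.9, 53.8 and 51.7 in lymph nodes. Il2ra, which encodes CD25, read 2477, 2267 and 2568 in fat Treg and 1641, 1166 and 1586 in lymph node Treg, with a difference of 0.75 ± 0.30 (adjusted p = 0.0643). Its values did not overlap between the groups either. Cd3e, a chain of the T cell receptor complex, overlapped between the groups at 1707, 1852 and 1379 in fat and 1363, 2313 and 1577 in lymph nodes. Cd4 overlapped as well, at 546, 513 and 418 in fat and 435, 534 and 489.9 in lymph nodes. Both tissues carried Y-linked transcripts: Eif2s3y read 1162, 967 and 1513 in fat and 2909, 1859.8 and 2072 in lymph nodes, and Kdm5d 131, 138 and 107 and 224, 333 and 215. Xist, the RNA of the inactive X chromosome, was at 121, 142 and 106 in fat and 35.9, 37.2 and 60.0 in lymph nodes. The lymph node pools thus held male RNA. Eif2s3y and Kdm5d were called lower in fat (differences of -0.91 and -1.02), while the Y-linked gene Uty was called higher, at 582, 352 and 458 in fat and 70.1, 52.4 and 32.1 in lymph nodes (3.21 ± 0.26). The other Uty probe sets gave 0.23 and 1.09. The other Xist probe sets differed by -1.02 to 0.57 between the tissues.

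The largest increases in fat Treg mixed 3 kinds of gene. Of the 12 largest, Cxcl3, Cxcl2 and Hpgd are Treg transcripts described for fat, Fosb, Klf4, Fosl2, Atf3, Hspa1a and Hspa1b are early response and heat shock genes, and Fabp4 and Efemp1 are transcripts of adipocytes, macrophages, vessels or connective tissue. In RNA of a sorted pool, more cells of a type and more RNA per cell cannot be told apart. AA467197, the remaining one, was in none of the lists. The lists counted below as T cell genes include those of lipid handling, chemokines, chemokine receptors and cytokines. They therefore also hold Fabp4, Cd36, Ccl6 and Ackr3, which are not particular to T cells. The lists counted here and below as dissociation genes also include NF-kB subunits and feedback genes, and metallothionein and oxidative stress genes. The NF-kB list had a median of 1.39 in Treg and 0.50 in Tconv. A place in these lists does not assign a gene to dissociation, which was not tested. Among the 58 genes higher by at least 16-fold, 12 were in lists of dissociation and stress genes (20.7%, against 0.791% of all genes tested), 6 in lists of other cell types (10.3% against 0.906%), 17 in lists of T cell genes (29.3% against 3.85%) and 26 in none (a gene can be in more than 1 list). Of the same 58, 53 were also called higher in fat Tconv than in lymph node Tconv (11% of all genes were). A difference called larger in Treg than in Tconv was found for 22 (2.46% of all genes). The 58 were chosen by the Treg difference, which is a term of that contrast. The choice itself thus favoured the 22, and the share of all genes is not a like comparison.

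**Figure D1:**
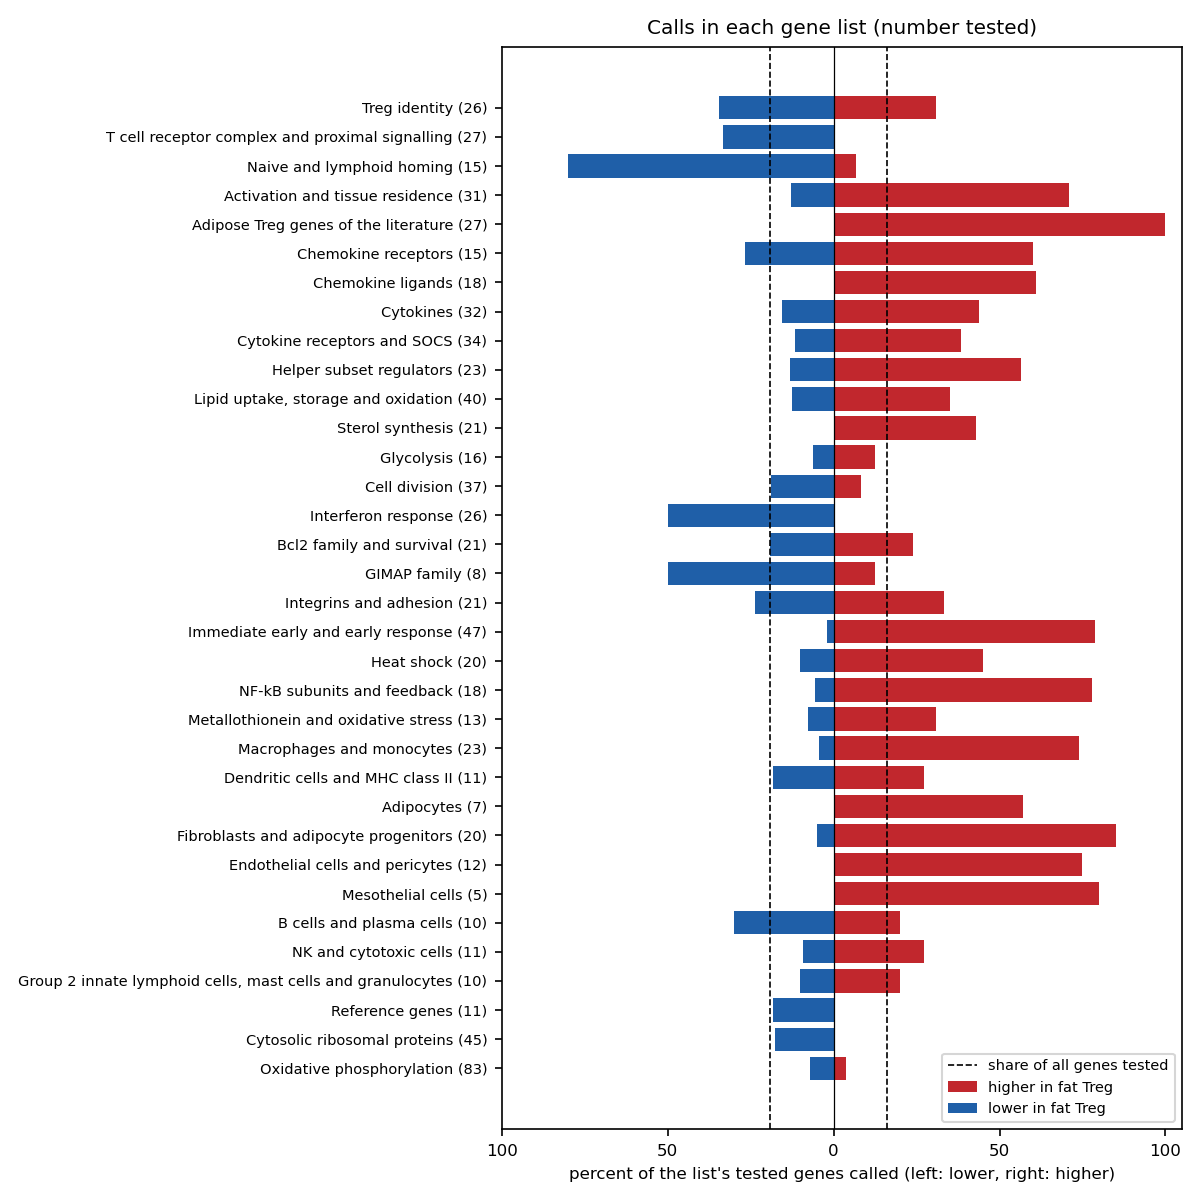
Percent of each list's tested genes that were called higher (red, to the right) or lower (blue, to the left) in fat Treg than in lymph node Treg, with the number tested in parentheses. Dashed lines mark the shares over all 12258 genes tested, 16.1% higher and 19.3% lower. Lists with under 5 tested genes are left out.

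The 2 chemokine genes at the top of the comparison lie near each other on chromosome 5 and differ in how far fat Tconv shared them, so the 250 bases before their starts are shown, from RefSeq on build GRCm38.p6. Both are on the plus strand, and capitals mark matches to the NF-kB core motifs that were searched (GGGAATTTC and GGGACTTTC, both strands). The Cxcl2 stretch is chr5:90903649-90903898 and the Cxcl3 stretch chr5:90785851-90786100.
Cxcl2: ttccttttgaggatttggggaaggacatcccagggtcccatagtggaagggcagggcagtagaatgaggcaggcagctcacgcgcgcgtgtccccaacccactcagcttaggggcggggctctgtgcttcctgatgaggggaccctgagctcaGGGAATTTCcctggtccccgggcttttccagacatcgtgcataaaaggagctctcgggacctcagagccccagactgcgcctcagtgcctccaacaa
Cxcl3: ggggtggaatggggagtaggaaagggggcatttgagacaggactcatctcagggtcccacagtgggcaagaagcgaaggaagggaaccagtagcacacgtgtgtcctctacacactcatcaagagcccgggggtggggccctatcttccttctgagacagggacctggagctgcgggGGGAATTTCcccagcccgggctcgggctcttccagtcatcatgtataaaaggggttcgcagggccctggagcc
Each stretch held 1 match, GGGAATTTC in both, beginning 97 bases before the start of Cxcl2 and 73 bases before that of Cxcl3. Neither held a match to the AP-1 motif (TGAGTCA or TGACTCA), the cyclic AMP response element (TGACGTCA) or the CArG motif. Over all 32851 promoter windows of this length in the table, 0.524% held one of the NF-kB core motifs, 4.46% AP-1, 1.55% the cyclic AMP response element and 1.47% CArG. Of the 21 chemokine ligand genes with a promoter in the table, 4 had an NF-kB core match, or 19%, against 0.618% of 27025 genes. A match is a description of the sequence and does not show that a factor bound there.

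Cxcl3 and Cxcl2 encode chemokines that attract neutrophils. Cxcl3 read 1724, 1682 and 1441 in fat Treg and 9.82, 9.2 and 9.4 in lymph node Treg, a difference of 7.41 ± 0.19 (adjusted p = 2.28e-14). Fat Tconv stayed at 8.26, 16.1 and 8.29, near the bottom of the scale. The groups were far apart on every array, and the tissue difference was larger in Treg than in Tconv by 6.77 ± 0.27 (adjusted p = 9.3e-11). Cxcl2 read 10563, 9195 and 8949 in fat Treg and 74.6, 64.0 and 53.5 in lymph node Treg, a difference of 7.23 ± 0.25. Fat Tconv also carried Cxcl2, at 1435, 679.6 and 564 against 18.7, 19.6 and 16.1 in lymph node Tconv. Its tissue difference was 1.73 larger in Treg (adjusted p = 0.00483). Of 28 matched chemokine ligand genes 18 were tested, and 11 were higher and 0 lower, with a median of 0.72. A member dim in lymph nodes was tested only where another group, such as fat, was high. The lack of lower calls is therefore partly fixed by the filter on dim genes. Fat Treg 1 was the highest fat Treg array for 14 of the 18 (77.8%, against 36.6% of all genes). Cxcl10 rose by 3.82, Ccl6 by 4.72 and Cxcl1 by 2.98. Cxcl1 read 3845, 1314 and 1163 in fat and 198, 195 and 306 in lymph nodes, with fat Treg 1 far above the others. Cxcl10, which attracts cells with CXCR3, read 1318, 1033 and 866 in fat. Ccl6, a macrophage chemokine, was uneven, at 1276, 221 and 1150.3 against 26.5, 28.9 and 23.1 in lymph nodes, and was lowest in the fat Treg array where macrophage transcripts were lowest.

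Genes that the literature ties to adipose Treg rose together. All 27 tested members of that list were called higher, with a median of 3.24 (2.86, 3.16 and 3.37 within the array runs), and all 27 remained so without fat Treg replicate 1. The literature chose this list partly on these arrays, so its direction is not independent evidence. Il10, the suppressive cytokine interleukin-10, read 4319.9, 5311 and 4881 in fat and 91.2, 121 and 155 in lymph nodes, a difference of 5.33 ± 0.16 (adjusted p = 2.07e-13). Pparg, the gene of PPARgamma, read 583, 861 and 809.6 in fat and 29.8, 24.3 and 27.2 in lymph nodes, a difference of 4.78 ± 0.25 (adjusted p = 3.08e-10). Gata3, a factor of type 2 helper cells, read 2119.6, 1584 and 1953 and 227, 241 and 142, a difference of 3.24 ± 0.19 (adjusted p = 1.46e-09). None of these 3 genes overlapped between tissues, and fat Tconv had 176, 214 and 178 for Il10, 43.5, 74.4 and 107 for Pparg and 245, 329 and 284 for Gata3. Hpgd, the enzyme that degrades prostaglandin E2, read 1452, 2411 and 1854 in fat and 18.3, 23.2 and 16.6 in lymph nodes, a difference of 6.61 ± 0.30. Another Hpgd probe set gave 2.63. Irf4 and Batf, partner factors of effector Treg, rose less, by 1.02 ± 0.27 and 0.70 ± 0.18. Irf4 read 1643, 2613 and 2653 in fat against 930.3, 982 and 1491 in lymph nodes. Batf read 575, 324 and 436 against 295, 275 and 234, and its call was lost when arrays were centred on their medians instead. Id2, an inhibitor of helix-loop-helix factors, rose by 4.41, and the nuclear receptor gene Rora by 3.48. Il1rl1 and Areg were not analysed here.

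How much of this was shared with fat Tconv varied by gene. In Tconv, 20 of the 27 adipose Treg genes were also called higher in fat (11% of all genes were), with a median of 1.85, and 0 were lower (12.3% of all genes were). The tissue difference was larger in Treg for 15 (2.46% of all genes) and smaller for 1 (2.88%). Because the literature chose this list partly on these arrays, these counts are not independent evidence either. The 15 included Cxcl3, Hpgd, Ccr1, Pparg, Il10 and Gata3. The 1 was Klrg1, a receptor of terminally differentiated lymphocytes, which read 8692, 8757 and 8545 in fat Treg and 3450.2, 2544 and 2187 in lymph node Treg. In Tconv it went from 114, 143 and 156 in lymph nodes to 2242, 1796 and 1421 in fat, so that the difference was 1.69 ± 0.20 in Treg and 3.71 ± 0.20 in Tconv. Ccr2, Rora, Cxcr6, Nfil3 and Gzmb rose in both cell types with no called difference between them (limma adjusted p of the difference of differences 0.669 to 0.951).

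**Figure D2:**
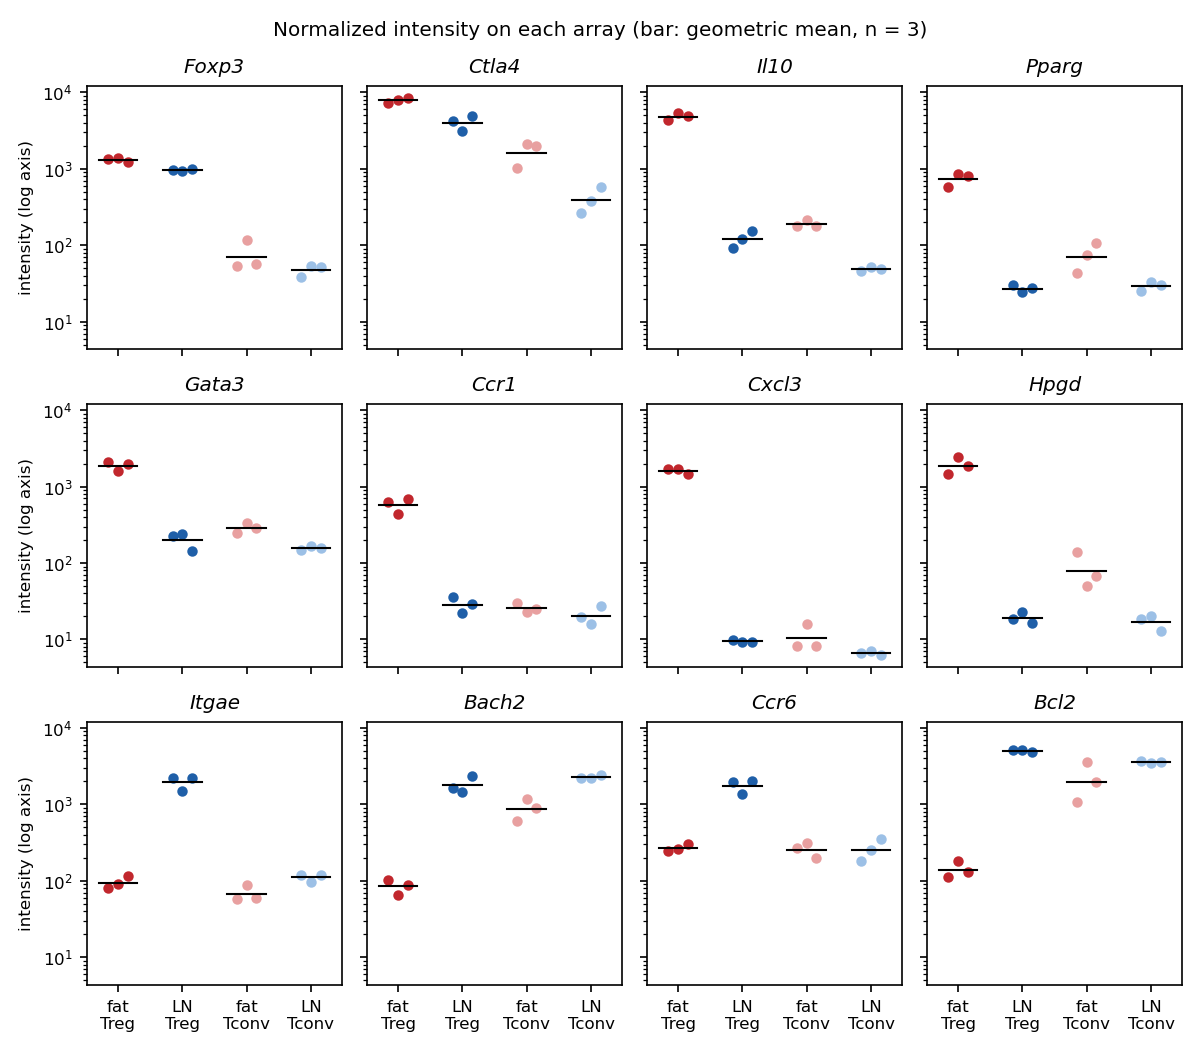
Normalized intensity (log axis) of 12 genes on each array of fat Treg, lymph node Treg, fat Tconv and lymph node Tconv, 3 arrays per group, with bars at the geometric mean. Il10, Pparg, Gata3, Ccr1, Cxcl3 and Hpgd are highest in fat Treg, and Itgae, Bach2, Ccr6 and Bcl2 are far lower in fat Treg than in lymph node Treg, while Foxp3 separates Treg from Tconv.

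Of the Treg identity genes, 8 of 26 tested were higher and 9 lower, with a median of 0.03, and without fat Treg 3 the counts were 5 and 8. Fgl2, a secreted suppressor, read 2929, 3246 and 3567 in fat and 566, 285 and 298 in lymph nodes, a difference of 3.15 ± 0.26. Ctla4, an inhibitory receptor, read 7244, 7963 and 8447 in fat and 4223, 3138 and 4939 in lymph nodes, a difference of 0.97 ± 0.32 (adjusted p = 0.0272). The Ctla4 groups did not overlap, but the call was lost without fat Treg 2, fat Treg 3, lymph node Treg 1 or lymph node Treg 2. The costimulatory receptors Tnfrsf4 and Tnfrsf9 rose by 1.15 and 0.99, and the latter call was lost without fat Treg 3.

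Several surface markers of lymph node Treg fell. Itgae, the integrin CD103 that binds E-cadherin, read 79.6, 90.7 and 116 in fat Treg and 2235, 1497 and 2224 in lymph node Treg, a difference of -4.37 ± 0.23 (adjusted p = 3.08e-10). Lymph node Tconv had 119, 97.1 and 120.2. Its other probe set gave -5.02. Gpr83, a receptor enriched in Treg, read 83.6, 159.5 and 135 in fat and 1629, 1627 and 1898 in lymph nodes (-3.82 ± 0.39). Izumo1r, the folate receptor 4 of Treg, read 107, 162 and 125 and 904, 859 and 605 (-2.59 ± 0.26). Lymph node Tconv had 176, 188 and 244 for Gpr83 and 210.0, 333 and 476 for Izumo1r, and the 3 fat Treg values of both genes lay below these. For all 3 genes the fat values were a small fraction of the lymph node values on every array. Nt5e, the ectonucleotidase CD73, fell by 2.93, from 345, 434 and 489 to 48.6, 48.5 and 69.8, and its 2 other probe sets gave -0.06 and 0.02. Cd83, which steadies surface MHC class II, differed by -2.16. Ikzf4 (Eos) fell by 1.68, whereas Ikzf2 (Helios), at 3969.5, 4351 and 4316 in fat and 6385, 6636 and 8072 in lymph nodes, did not pass the test (adjusted p = 0.0749). The decreases of Itgae, Gpr83, Nt5e and Izumo1r were each larger in Treg than in Tconv (adjusted p = 1.53e-06, 0.00145, 0.000219 and 0.026). For Itgae, Gpr83 and Izumo1r, lymph node Tconv started lower than lymph node Treg, which left less room for a fall in Tconv.

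Most genes of naive and recirculating T cells fell. Among them, 1 of 15 tested was higher and 12 lower, with a median of -1.35, and medians within the 3 array runs were -1.89, -1.86 and -1.46. Bach2, a repressor that holds T cells in a resting state, read 103, 65.1 and 89.1 in fat and 1639, 1451 and 2373 in lymph nodes (-4.40 ± 0.25, adjusted p = 6.23e-10). Ccr7, the receptor for entry into lymph nodes, read 72.4, 49.9 and 79.0 and 439, 359 and 452 (-2.65 ± 0.36, adjusted p = 1.84e-05). Lef1, a factor of naive T cells, read 119.9, 135 and 167 and 360.4, 292 and 323 (-1.22 ± 0.21). No fat value of these 3 reached the lowest lymph node value. Satb1, a chromatin organiser, was uneven in fat at 449, 99.5 and 234, yet far below the 2139, 2224 and 1688 of lymph nodes (-3.20 ± 0.34). Cxcr5, the receptor for B cell follicles, had a called difference of -2.19, and Actn1, a cytoskeletal crosslinker, one of -3.20, though its other probe set gave 1.12. Il7r, the interleukin-7 receptor, was the single member called higher (0.77 ± 0.23), and that call was lost without fat Treg 1, lymph node Treg 1 or lymph node Treg 2. Fat Tconv showed 10 of the 15 genes lower than lymph node Tconv, and for Bach2 and S1pr1 the fall was larger in Treg (adjusted p = 2.57e-05 and 0.0167). S1pr1 encodes the receptor for exit from lymphoid organs and differed by -1.35 in Treg and -0.26 in Tconv.

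**Figure D3:**
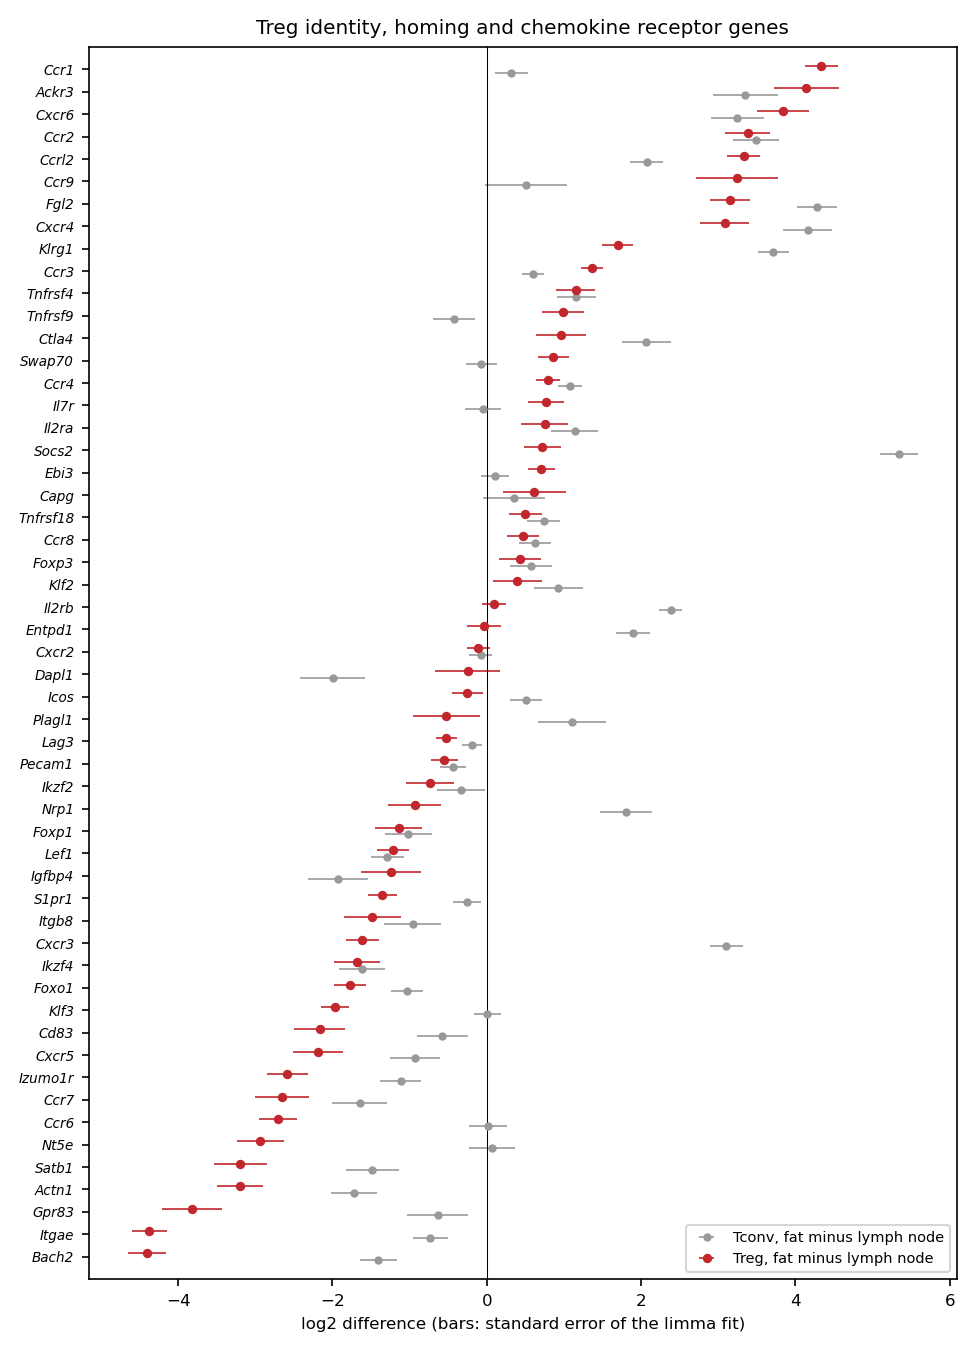
Log2 difference between fat and lymph node for the tested Treg identity, naive and homing, and chemokine receptor genes, in Treg (red) and Tconv (grey), with bars for the standard error of the limma fit. Cxcr3 and Socs2 lie far to the right in Tconv but not in Treg, and Itgae, Gpr83, Nt5e and Ccr6 far to the left in Treg but not in Tconv.

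Fat and lymph node Treg carried different chemokine receptors. In that list, 9 of 15 tested were higher and 4 lower. Ccr1, a receptor for inflammatory chemokines, read 628, 439.8 and 683 in fat Treg and 36.0, 22.3 and 28.7 in lymph node Treg (4.33 ± 0.21, adjusted p = 1.08e-10). In Tconv it did not differ by a called amount, at 29.7, 22.6 and 24.8 in fat and 19.6, 15.8 and 27.7 in lymph nodes. Ccr2, the receptor for CCL2, read 2762, 2956 and 3333 in fat and 458, 247 and 213 in lymph nodes (3.38 ± 0.29). Ackr3, Cxcr6 and Ccrl2 rose by 4.14, 3.83 and 3.33. Ackr3 read 347, 83.2 and 159.7 over the fat Treg arrays, highest on fat Treg 1, which also had the highest sum of fibroblast markers. Its cell source was not tested. Ccr6, which binds CCL20, fell from 1971, 1373 and 1999 to 243, 261 and 305 (-2.71 ± 0.25). Cxcr3, the receptor of type 1 effector cells, moved in opposite directions. Fat Treg had 333, 186 and 335 and lymph node Treg 801, 819 and 905, while fat Tconv had 3753, 4235 and 4398 and lymph node Tconv 389, 556 and 509.7. The tissue difference was -1.61 ± 0.21 in Treg and 3.10 ± 0.21 in Tconv, and the difference between these was -4.72 ± 0.30 (adjusted p = 3.85e-08).

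Of the activation and residence genes, 22 of 31 tested were higher and 4 lower, with a median of 1.26. Anxa1, a regulator of inflammation, read 8757, 10300 and 8757 in fat and 339.7, 213 and 204 in lymph nodes (5.23 ± 0.25). S100a4, Lgals3 and Crem rose by 3.92, 4.34 and 4.56. These genes were also higher in fat Tconv, where 22 of 31 members were called higher. Pdcd1, the inhibitory receptor PD-1, rose in Treg. It read 601, 458 and 919.5 in fat Treg and 111, 76.1 and 104 in lymph node Treg, a difference of 2.72, against 0.10 in Tconv (these differed with adjusted p = 0.00162). Cd200 and Itgb1 fell by 1.95 and 0.89. Itgb1, the beta-1 integrin, rose by 2.45 in Tconv. Among integrins and adhesion genes, 7 of 21 tested were higher (33.3%, against 16.1% of all genes) and 5 lower (23.8% against 19.3%). Itgav and Itgb3, which pair to form the vitronectin receptor, both rose in Treg: Itgav read 7219.7, 6101 and 6233 against 1189, 1218 and 1419.5 (2.35 ± 0.17), and Itgb3 2653, 2727 and 2477 against 636, 639 and 736 (1.97 ± 0.20). The rise of each was larger than in Tconv, by 1.79 and 2.31 (adjusted p = 0.00015 and 6.05e-05), although the other Itgb3 probe set gave 0.22 between the Treg groups. Itga6, Itgb8 and Itgal, the last a chain of LFA-1, were lower, with differences of -1.50, -1.48 and -0.91.

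Genes of T cell receptor signalling showed no increase: 0 of 27 tested were higher and 9 lower. The signal adaptor genes Trat1 (114, 97.7 and 106 in fat, 494, 411 and 669.6 in lymph nodes) and Themis differed by -2.28 and -1.15. The kinases Txk and Prkcq fell by 2.40 and 1.38, and the costimulatory receptor Cd27 by 1.30. Trat1 and Prkcq fell more in Treg than in Tconv (adjusted p = 7.12e-06 and 0.0105). The chains Cd3e, Cd3d, Cd3g and Cd247 did not pass the test, with differences of -0.43 to 0.24. On the deposited scale the median of this list was 0.12 instead of -0.26.

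Single cytokine genes other than Il10 changed in both directions. In the cytokine list, which holds Il10, 14 of 32 tested were higher (43.75%, against 16.1% of all genes). Another 5 were lower (15.6% against 19.3%), which is under the share of all genes. Il5, the eosinophil growth factor, read 326, 95.7 and 193 in fat and 31.9, 37.0 and 38.1 in lymph nodes (2.35 ± 0.29). Gzmb, a cytotoxic protease, read 1943, 2262 and 1202 and 681, 254 and 289.6 (2.24 ± 0.30), and Csf2 (GM-CSF) 200.2, 197 and 220.0 and 46.4, 55.2 and 53.8 (1.99 ± 0.18). Fat values were above lymph node values on all arrays for these 3, with Il5 uneven over the fat pools. Il6 read 206, 27.7 and 57.9 in fat, highest in the pool with most connective tissue transcripts, against 8.73, 7.95 and 9.58 in lymph nodes. The lymphotoxin genes Lta and Ltb fell by 2.13 and 1.25, Il16 by 1.38, and Tnfsf10 (TRAIL) by 0.82. Fasl, the death ligand, differed by -1.02 ± 0.17 in Treg and by 3.46 ± 0.17 in Tconv. Ifng (interferon gamma) overlapped between fat Treg, at 989, 148 and 346, and lymph node Treg, at 401, 429 and 311, while its Tconv difference was 5.32 ± 0.48. Of cytokine receptors and their SOCS feedback genes, 13 of 34 tested were higher and 4 lower. Csf2rb rose by 4.03, Il10ra by 3.03, Il18rap by 2.41 and Ifngr1 by 1.55, whereas Il6ra, Tgfbr1 and Il27ra fell by 2.27, 1.66 and 1.01. Il10ra, the receptor for interleukin-10, read 832, 964 and 1108 in fat and 129, 109 and 116 in lymph nodes. Its other probe set gave 0.23, and that of Il6ra gave 0.09. Socs2 read 854, 987 and 967 in fat Treg and 692, 453 and 583 in lymph node Treg, a small rise that several single arrays decide, while in Tconv it went from 28.9, 29.6 and 32.6 to 1188, 1339 and 1162.

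Among factors that direct helper subsets, 13 of 23 tested were higher and 3 lower. Beside Pparg, Id2, Rora, Gata3 and Nfil3, the called increases included Bhlhe40 (2.30), Stat3 (1.66) and Prdm1 (Blimp-1, 1.30). Ahr, the aryl hydrocarbon receptor, read 489, 379 and 399 in fat Treg and 1135, 1283 and 1951 in lymph node Treg, a difference of -1.75 ± 0.25 in Treg and 1.61 ± 0.25 in Tconv. Its second probe set gave 0.09 in Treg. Id3 and Stat5b fell by 1.79 and 0.80. Tbx21 (T-bet), the type 1 master factor, was at 60.2, 28.1 and 51.9 in fat Treg and 55.1, 64.2 and 49.4 in lymph node Treg and did not pass the test, whereas in Tconv the difference was 4.93 ± 0.29. The difference between the 2 was -5.26 ± 0.41 (adjusted p = 2.93e-07).

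Bcl2, which protects resting lymphocytes from death, showed the largest decrease of all. It read 112, 181 and 131 in fat Treg and 5196, 5097 and 4834 in lymph node Treg (-5.19 ± 0.31, adjusted p = 1.46e-09). Fat Tconv kept 1069, 3586 and 1972 against 3640.4, 3432 and 3598 in lymph node Tconv. The fall was 4.33 log2 units larger in Treg (adjusted p = 6.45e-06), and the 4 other Bcl2 probe sets ranged from -5.07 to -0.01. In the whole survival list, 5 of 21 tested were higher (23.8%, against 16.1% of all genes) and 4 lower (19.0% against 19.3%). No shift of the list as a whole is read from these counts. The death sensitisers Bid and Bcl2l11 (BIM) fell by 1.37 and 1.09, and the survival gene Mcl1 by 0.83. Pmaip1 (NOXA), another sensitiser, read 2043, 2146 and 2657 in fat and 228, 290.4 and 311 in lymph nodes (3.05 ± 0.21). The protective genes Bcl2l1 (BCL-XL), Pim1 and Birc3 rose by 1.57, 2.10 and 1.23, and the sensitiser Bmf by 1.12. Among the GIMAP GTPases of lymphocytes, 1 of 8 tested was higher and 4 lower. Gimap9 fell by 1.20 and Gimap1 by 0.95, and Gimap5 rose by 0.86. Without fat Treg 1 the counts became 2 higher and 2 lower, and without lymph node Treg 2 they became 1 and 2. The smaller difference of Gimap4, -0.47, turned to 0.054 on the deposited scale.

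The remaining large decreases were Ifit1bl1, an interferon-induced gene, at 45.9, 38.3 and 76.0 in fat and 1482, 2009 and 1779 in lymph nodes (-5.09 ± 0.34), and Myb, a progenitor transcription factor, at 54.5, 25.6 and 32.1 and 698, 746 and 994 (-4.50 ± 0.32). H2-Ob, a regulator of MHC class II loading, read 84.1, 59.8 and 66.3 and 1308, 1666 and 1477 (-4.41 ± 0.34). All were lower on every fat array, while the other Myb probe sets ranged from -4.71 to -0.79. Also among the largest decreases were Evl, an actin regulator (-4.18), the G protein coupled receptor gene Gpr18 (-4.71), the neuronal gene Nsg2 (-4.20) and the growth factor homologue Fgf13 (-4.84). Gm8369 and 1110032F04Rik had differences of -4.98 and -4.53.

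Interferon-stimulated genes, where they changed, were lower in fat Treg. In that list 0 of 26 tested were higher and 13 lower, with a median of -0.61 and medians of -0.33, -0.63 and -0.88 within the array runs. Usp18, which dampens interferon signalling, read 58.9, 58.7 and 56.5 in fat and 533, 803 and 832 in lymph nodes (-3.61 ± 0.38, adjusted p = 1.16e-06). Ifit2, an antiviral gene, read 58.5, 50.2 and 64.7 and 339.5, 386 and 464 (-2.77 ± 0.23). Both were lower on all fat arrays, and Rtp4, Ifit1 and Ifit3 had called differences of -2.64, -2.64 and -2.09. In Tconv 7 of the 26 were lower and 2 higher in fat. On the deposited scale the Treg median was -0.23.

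Genes of lipid handling were called higher more often than all genes and lower less often. In the list 14 of 40 tested were higher (35%, against 16.1% of all genes) and 5 lower (12.5% against 19.3%). Plin2, which coats lipid droplets, read 2401, 2605 and 2883 in fat and 197, 211 and 234 in lymph nodes (3.62 ± 0.20), and Dgat1, the last enzyme of triglyceride synthesis, 13130, 10972 and 12142 and 699.6, 699 and 793 (4.05 ± 0.28). Both were even over the fat arrays, and the tissue difference was larger in Treg than in Tconv by 1.77 and 1.58 (adjusted p = 0.000759 and 0.0224). Fabp4, a fatty acid carrier of adipocytes, macrophages and capillaries, read 2243, 1748 and 2265 in fat Treg and 7.89, 9.8 and 7.83 in lymph node Treg (7.93 ± 0.20), the largest increase of all. Fat Tconv overlapped fat Treg, at 2476, 1378 and 2097, and the other Fabp4 probe sets differed by 1.82 to 6.31 between the Treg groups. Cd36, a fatty acid translocase, read 526, 173 and 333 in fat Treg and 244, 119 and 251 in fat Tconv, against 13.2, 13.7 and 12.4 in lymph node Treg (4.57 ± 0.32). Lpl, the lipoprotein lipase, read 2334, 479.6 and 1565 in fat and 43.3, 40.7 and 42.6 in lymph nodes. Cd36 and Lpl were lowest in fat Treg 2 and highest in fat Treg 1. The summed adipocyte markers had the same order, but Lpl is itself a large part of that sum, so its match was not independent. Scd2, a fatty acid desaturase, fell from 2684, 1922 and 2144 to 316, 244 and 314 (-2.95 ± 0.18). The cholesterol exporters Abca1 and Abcg1 fell by 2.15 and 0.96, Gpam by 0.86 and Cpt2 by 0.85. Of sterol synthesis genes, 9 of 21 tested were higher and 0 lower, led by Insig1, the sterol sensor partner (753, 893 and 881 in fat, 213, 189.7 and 173 in lymph nodes, 2.13 ± 0.21). Cyp51, Idi1, Hsd17b7 and Stard4 rose by 1.70, 1.59, 1.38 and 1.33.

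Few genes of basic metabolism were called. Of glycolysis genes, 2 of 16 tested were higher and 1 lower: the glucose transporter gene Slc2a1 (0.96) and Aldoa (0.53) were higher and Hk2 (-0.81) lower, although single Hk2 values overlapped between the tissues and the call was lost without fat Treg 2, fat Treg 3, lymph node Treg 2 or lymph node Treg 3. The Slc2a1 call was lost without fat Treg 2, and that of Aldoa without any of 4 arrays (fat Treg 2 and 3, lymph node Treg 1 and 3). Of 83 oxidative phosphorylation genes, 3 were higher and 6 lower, but without lymph node Treg 3 the counts were 3 and 20. That array had the lowest sum of the list, 85318 against 121680 and 120900 in the other lymph node Treg, and the medians within the runs were -0.27, -0.21 and 0.22, the last with lymph node Treg 3. Ndufa4 fell by 1.54, Ndufaf1 by 1.32 and Ndufv2 by 0.74, and Atp5md and Atp5d rose by 0.98 and 0.82. Of 45 ribosomal protein genes, 8 were lower (17.8%, against 19.3% of all genes) and none higher. Their median of -0.31 became 0.18 on the deposited scale. Leaving out lymph node Treg 3 gave 14 lower, and leaving out any 1 of the other 5 arrays gave 3 to 5. Ribosomal sums were 208050 on lymph node Treg 3 against 267200 and 251290 on the other lymph node Treg arrays. Of 11 reference genes, 2 were lower (Gusb -0.86, Sdha -0.57), or 18.2% against 19.3% of all genes, and none higher. Among cell division genes, 3 of 37 tested were higher (8.11%, against 16.1% of all genes) and 7 lower (18.9% against 19.3%). The lower calls were thus near the share of all genes. Ccne1 fell by 1.76, Tyms by 1.44, Tk1 by 1.34 and Mcm7 by 1.14. Mki67, the proliferation marker, read 342, 289 and 337 in fat Treg and 366, 456 and 484 in lymph node Treg and did not pass the test (-0.42 ± 0.41, adjusted p = 0.45), while the Tconv difference was 1.96 ± 0.41. In Tconv 10 of these 37 genes were higher in fat and 1 lower. Leaving out any 1 array other than fat Treg 2 gave 1 higher and 4 to 6 lower in Treg, with 4 lower without fat Treg 1.

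Immediate early and other early response genes, which respond to tissue dissociation and also to receptor signals, were far higher in fat Treg. Of them, 37 of 47 tested were higher and 1 lower, with a median of 2.09, and of 2.10, 2.52 and 1.71 within the array runs. Fosb, a subunit of the AP-1 factor, read 4426, 6451 and 5628 in fat and 42.2, 49.0 and 76.7 in lymph nodes (6.65 ± 0.26). Atf3, a stress-induced repressor, read 1882, 2132 and 1900 and 27.8, 32.1 and 37.9 (5.93 ± 0.13). Fos read 8949, 9311 and 8692 and 817, 589 and 1942 (3.20 ± 0.41). The fat arrays were close to one another for all 3, and lymph node Treg 3 was the highest lymph node array for each. Klf4 and Fosl2 rose by 6.12 and 6.02, although the second Fosl2 probe set gave 0.77, and Ier3 by 4.86. Egr2, induced by T cell receptor signals, went the other way, at 336, 145 and 232 in fat and 1234, 1504 and 1451 in lymph nodes (-2.63 ± 0.28). Egr3 read 268, 442 and 704 in fat and 969, 704 and 956 in lymph nodes, with a difference of -0.99 ± 0.39 that did not pass the test (adjusted p = 0.056). Fat Tconv gave the same counts, 37 higher and 1 lower, with a median of 2.06. The tissue difference was larger in Treg for 6 of the 47 and smaller for 2, and with the replicate block described below for 9 and 7. Atf3 differed most, by 2.67 ± 0.18 (adjusted p = 5.65e-08), and fat Tconv held 254, 247 and 287. Of 36 members with a promoter in the table, 4 had a cyclic AMP response element (11.1%, against 1.77% of all genes), 3 a CArG motif (8.33% against 1.62%) and 1 an AP-1 motif (2.78% against 5.16%). How the tissues were dissociated is not given in the sources used here, and its part in these values was not tested.

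Heat shock genes rose less evenly: 9 of 20 tested were higher and 2 lower, with 1 lower when any array other than lymph node Treg 1 was left out. Hspa1a, an inducible HSP70 gene, read 1176, 1426 and 2289 in fat and 11.2 to 15.3 in lymph nodes (6.94 ± 0.24), and its near-identical copy Hspa1b rose by 5.68, so that the probe sets may not tell them apart. Fat Tconv had more Hspa1a, at 2629.8, 4913 and 3785. Among the chaperones that are abundant without stress, Hspa8 (0.06) and Hsp90aa1 (0.29) did not pass the test and Hspd1 fell by 0.61. Dnajb9, Bag3 and Dnajb4 rose by 1.48, 1.42 and 1.14. Of the NF-kB subunits and feedback genes, 14 of 18 tested were higher and 1 lower, with a median of 1.39 in Treg and 0.50 in Tconv. Nfkbie, an inhibitor subunit, read 1652, 1429.6 and 1167 in fat and 149.6, 173 and 155 in lymph nodes (3.14 ± 0.19). Rel, the c-Rel subunit, read 1573, 709 and 1096 and 129, 130.3 and 138 (3.01 ± 0.24), and Tnfaip3 (A20), a feedback inhibitor, 9099, 8571 and 8513 and 904, 1092 and 1628 (2.90 ± 0.22). No fat value of these overlapped a lymph node value. Nfkbid rose by 4.02. The tissue difference was larger in Treg than in Tconv for 6 of the 18 members and smaller for none (8 and 1 with that block), with Nfkbie the largest of them (2.39 ± 0.27, adjusted p = 2.2e-05). Among metallothionein and oxidative stress genes, 4 of 13 tested were higher and 1 lower, and the lower call was lost without any 1 array other than lymph node Treg 2. Mt1 and Mt2 rose by 3.30 and 3.77, more than in Tconv by 2.14 and 2.03.

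Transcripts of other fat-tissue cells were clearly present. Of fibroblast and adipocyte progenitor markers, 17 of 20 tested were higher and 1 lower, with a median of 1.72, and of 1.74, 1.35 and 2.42 within the array runs, the last of which holds fat Treg 1. The lower one was Thy1, which T cells also express. Dcn, the proteoglycan decorin, read 3953, 1304 and 1617 in fat Treg and 49.7, 50.8 and 54.7 in lymph node Treg (5.29 ± 0.31). Col3a1, a collagen chain, read 1017, 432 and 675 and 30.2, 32.9 and 26.4 (4.49 ± 0.29), and Efemp1, a matrix glycoprotein, 2169.6, 389.8 and 695 and 8.74, 7.18 and 8.47 (6.69 ± 0.48). Fat Treg 1 was the highest in all 3, by a wide margin for Dcn and Efemp1 and less so for Col3a1. The brightest in fat Treg were Gsn and Thy1, which T cells also express, Dcn and Fstl1. The list summed to 20962, 9852 and 10219 on the fat Treg arrays, 3707, 3331 and 3374 on the lymph node Treg arrays and 20044, 10554 and 10682 on the fat Tconv arrays. Fat Treg 1 was the highest of the fat Treg arrays for 18 of 20 tested members, against 36.6% of all genes. The list kept 16 members called higher without it. Pdgfra, a defining progenitor marker, was dim in both groups (means 34.2 and 34.2).

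**Figure D4:**
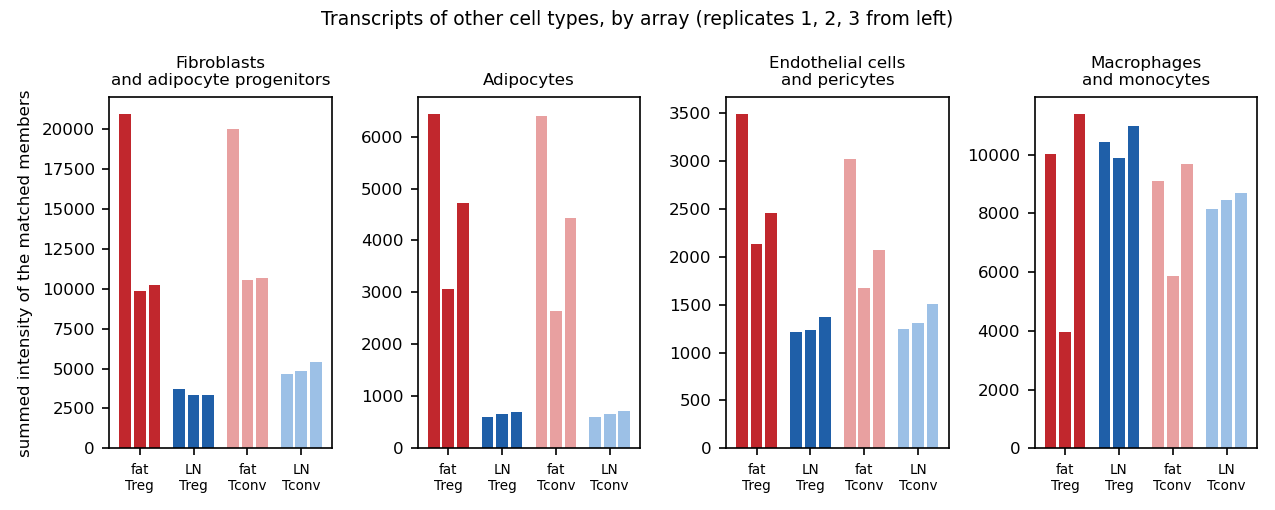
Summed intensity of the matched marker genes of 4 other cell types on each array of the 4 groups, replicates 1 to 3 from left to right. Fibroblast markers reach 20962 in fat Treg 1 and 20044 in fat Tconv 1, and macrophage markers are lowest in fat Treg 2, at 3959.5.

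Of 14 matched adipocyte markers 7 were tested, and 4 were higher and 0 lower. The higher ones were Fabp4, Lpl, Car3 and Ghr. Car3, an adipocyte carbonic anhydrase, read 627, 91.9 and 152 in fat and 16.5, 18.4 and 18.9 in lymph nodes. The defining markers were at or near the bottom of the scale: Adipoq (adiponectin) read 166, 20.3 and 36.0 in fat Treg and 17.4, 13.1 and 14.5 in lymph node Treg, and Lep, Cidec and Lipe had means of 43.2, 13.3 and 44.7 in fat Treg. Adipoq was thus above the lymph node values chiefly on fat Treg 1. The summed list was 6432, 3059 and 4721 in fat Treg, 599, 660.5 and 696 in lymph node Treg and 6391, 2643 and 4424 in fat Tconv. Of 20 matched vessel and pericyte markers 12 were tested, and 9 were higher and 0 lower. The higher ones were led by Rgs5 (3.48), Tek (2.03), Cldn5 (2.01), Ptprb (1.80) and Acta2 (1.62). Cdh5 (VE-cadherin) stayed at 25.1, 23.7 and 22.8 in fat and 24.1, 24.2 and 35.6 in lymph nodes. Kdr, Acta2 and Rgs5 were among the brightest and 7 calls were left without fat Treg 1. Vessel markers summed to 3491, 2137 and 2461 in fat Treg and 1216, 1233 and 1372 in lymph node Treg. Of 12 matched mesothelial markers 5 were tested, and 4 were higher and 0 lower, with Lrrn4 (3.35) the largest. Without fat Treg 1, 1 call was left. That list summed to 1459, 1371 and 1145 in fat Treg and 503, 531 and 622 in lymph node Treg, with Wt1 and Msln dim.

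Macrophage transcripts followed another order. Of them, 17 of 23 tested were higher and 1 lower, with a median of 1.44 and medians of 1.74, 0.56 and 1.99 within the runs, the run with fat Treg 2 being the lowest. Cd163, a scavenger receptor of resident macrophages, read 335, 72.6 and 290.1 in fat and 11.7, 11.2 and 10.9 in lymph nodes (4.09 ± 0.57). Lyz2, lysozyme, read 371, 149 and 656 and 113, 109 and 148 (1.44 ± 0.49, adjusted p = 0.0313), a call lost without fat Treg 1, fat Treg 3, lymph node Treg 1 or lymph node Treg 2. Csf1r, the receptor for macrophage growth factor, read 974, 273 and 789 and 130.2, 149.9 and 198 (1.92 ± 0.50). Fat Treg 2 was the lowest fat array in each case and for 19 of 23 tested members, against 28% of all genes. C1qb, Mrc1, Retnla and Fn1 rose by 3.27, 2.66, 2.35 and 2.20. Ctss (cathepsin S), which T cells also express, fell from 8719, 8037 and 8839.9 to 2289, 902 and 2767. It was the brightest of the list in fat Treg, followed by Lyz1 and Retnla. With Ctss included, the list sum, 10019, 3959.5 and 11383 in fat Treg and 10433, 9899 and 10966 in lymph node Treg, did not separate the tissues. Of dendritic cell and MHC class II genes, 3 of 11 tested were higher (27.3%, against 16.1% of all genes) and 2 lower (18.2% against 19.3%). H2-Ab1 (1.75), H2-Eb1 (1.44) and Siglech (0.48) were higher, and Cd86 (-2.58) and H2-DMa (-1.79) lower. H2-Aa, the brightest, overlapped between tissues.

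Markers of other lymphocytes and blood cells were called in both directions, and few were tested in each list. Over all genes tested 16.1% were higher and 19.3% lower. The shares here were 20% and 30% for B and plasma cells and 27.3% and 9.09% for NK and cytotoxic cells. Innate lymphoid cells, mast cells and granulocytes had 20% and 10%. No change in these cell types is read from counts this small. Of B and plasma cell genes, 2 of 10 tested were higher and 3 lower. Jchain, the immunoglobulin joining chain, read 1855, 1316 and 444 in fat and 61.5, 174 and 301 in lymph nodes, and its call was lost without fat Treg 1, fat Treg 2 or lymph node Treg 1. The B cell genes Bank1, Ms4a1 and Cd79b fell by 2.06, 1.51 and 1.43, and Cd79a was dim. Sums were 5011, 4429 and 2902 in fat Treg and 2551, 3404 and 3316 in lymph node Treg, and Xbp1, Jchain and Ms4a1 were the brightest. Of NK and cytotoxic cell genes, 3 of 11 tested were higher and 1 lower: Gzmb, Fcgr3 and Cd8a were higher and Txk lower, Ncr1 and the Klra genes were dim, and Gzmb, Nkg7 and Fcgr3 were the brightest. The call of the small Cd8a difference (0.43) was lost without any 1 of the 6 arrays, and its other probe sets gave -0.99 and -0.77. NK sums were 3439, 3491 and 2489 in fat Treg and 2033, 1689 and 1629 in lymph node Treg. Of innate lymphoid, mast cell and granulocyte markers, 2 of 10 tested were higher and 1 lower, the higher ones being Kit (0.96) and Hdc (0.59) and the lower Tpsb2 (-0.32, which turned to 0.11 on the deposited scale), and 12 of 22 matched members were dim, S100a8 and Mcpt8 among them. Gata2, Elane and Cpa3 were the brightest and the list summed to 1851, 1489 and 1390 in fat Treg and 1194, 1290.4 and 1368 in lymph node Treg. Of 12 matched epididymis and germ cell genes, Prm1 alone was tested and did not differ by a called amount (-0.05). Alas2, a red cell heme enzyme, rose by 3.83 while Hba-a1 was dim.

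Fat Tconv carried many of these transcripts too, with fewer calls in some lists. In fat Tconv, 4 of 7 adipocyte, 15 of 20 fibroblast, 7 of 12 vessel, 1 of 5 mesothelial and 8 of 23 macrophage markers were called higher. In Treg these counts were 4, 17, 9, 4 and 17. Over all genes 11% were called higher in Tconv and 16.1% in Treg. None of the 44 tested adipocyte, fibroblast, vessel or mesothelial markers had a called difference between Treg and Tconv in the size of the tissue effect. Of all genes 2.46% were called more positive in Treg and 2.88% more negative. With 3 arrays per group, the lack of a call does not show that the effects were equal. With same-numbered arrays of 1 tissue as a block (below), 7 of the 44 were called more positive in Treg and 0 more negative. Of the 7, 5 were fibroblast markers (Gsn, Dpt, Sparc, Fstl1 and Col1a2). Of 23 macrophage markers, 6 were more positive and 1 more negative. That block called 1447 of all 12258 genes, in either direction. Without the block the median differences of differences of the adipocyte, fibroblast, vessel and mesothelial lists were 0.00, 0.34, 0.38 and 0.47. Fat Tconv 1, like fat Treg 1, had the highest fibroblast sum of its group. Of the 202 genes at least 2-fold higher in fat Treg 1 than the mean of the other fat Treg arrays, 29 were in lists of other cell types (14.4%, against 0.906% of all genes tested), 23 in lists of T cell genes (11.4% against 3.85%) and 1 in a list of dissociation genes (0.495% against 0.791%). Gja1 (connexin 43) led them, at 567, 48.3 and 146. Those in T cell lists included Ifng and Dgat2 (1395, 477 and 690.3), but also Lpl, Cd36, Il6, Ccl6 and Ackr3. The latter are in the lipid, cytokine and chemokine lists and are not particular to T cells. The part of such transcripts in other results was not tested. Among the 27 adipose Treg genes, fat Treg 1 was the highest fat Treg array for 13 (48.1%, against 36.6% of all genes), with Gata3, Cxcl3 and Cxcl2 among them, while Il10, Pparg and Hpgd were lowest there.

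Over all genes, the tissue difference was tested between Treg and Tconv directly. It was called for 655 genes, 302 more positive in Treg and 353 more negative. Same-numbered Treg and Tconv arrays of 1 tissue deviated together, and with tissue and replicate number as a block the count was 1447. Of the 1969 genes higher in fat Treg, 953 (48.4%) were also called higher in fat Tconv, which is 70.4% of the genes higher there, and 270 had a difference called more positive in Treg. Of the 2360 lower genes, 1135 (48.1%) were also called lower in fat Tconv, 75.3% of those lower there, and 253 had a difference called more negative in Treg. Both sets were chosen by the Treg difference, a term of the tested contrast, so the choice itself favoured the 270 and the 253. Another 54 genes were called in opposite directions. The largest positive differences among genes called in both tests were Cxcl3, AA467197, Hpgd, Tmtc2, 1700061F12Rik, Dmxl2, Ccr1 and Tox2. Dmxl2 read 352, 981 and 587 in fat Treg and 34.0, 29.9 and 21.5 in fat Tconv, and AA467197 1352, 2379 and 2547 and 27.5, 50.3 and 44.5. In both, every fat Treg array was above every other array of the 4 groups. The largest negative ones were Cxcr3, Socs2, Fasl, P2rx7, Bcl2, Gm8369, Fgf13 and Btbd11. P2rx7, the ATP-gated channel, read 89.7, 83.3 and 76.8 in fat Treg and 414, 533 and 626 in lymph node Treg, but 617, 905 and 762 in fat Tconv and 141, 266 and 272 in lymph node Tconv.

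**Figure D5:**
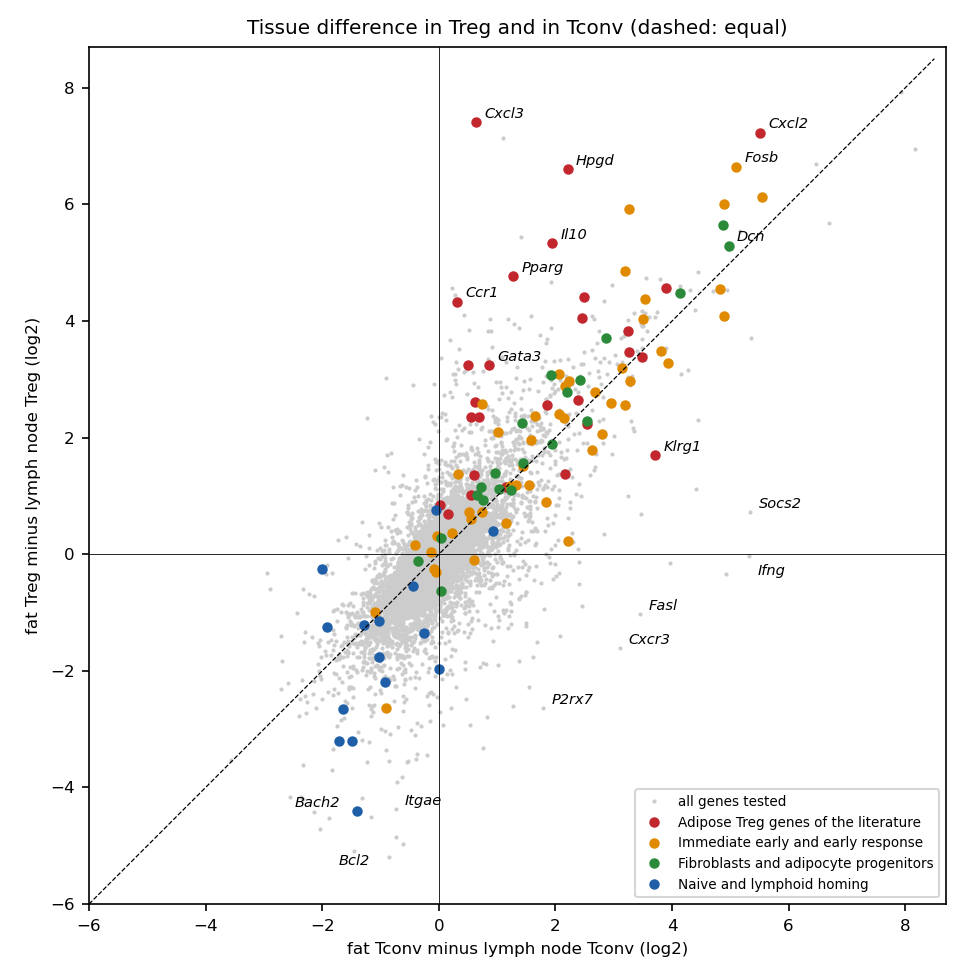
Log2 difference between fat and lymph node in Treg (vertical) against the same in Tconv (horizontal) for all 12258 genes tested, with 4 lists coloured. Many fibroblast and early response genes lie near the dashed line of equal differences. Of the 47 early response genes, 6 were called more positive in Treg, Fosb among them, and 2 more negative. Cxcl3, Hpgd, Il10, Pparg and Ccr1 lie above the line, and Cxcr3, Fasl, Socs2, Ifng and P2rx7 lie below.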

How the data were processed

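RNA of sorted, pooled cells was amplified 2 times and hybridised to Affymetrix M430v2 arrays, per the labels' protocols. The deposited values are linear intensities that the authors computed with RMA (version not given in the sources used here), per the series text and the submitters' processing notes, and the sources do not say whether RMA was run on all arrays at once. Their log2 values were quantile-normalized over all 18 arrays (limma 3.58.1, R 4.3.3). Of 45101 probe sets, 34945 carried 1 gene symbol, 932 several and 9160 none, beside 64 controls. The probe set with the highest mean stood for each of 18193 genes, and 12258 with at least 1 of 6 group means above 65.5 were tested. A linear model over 6 groups (12 residual and 4.92 prior degrees of freedom) gave differences, moderated tests and Benjamini-Hochberg adjusted p-values over all genes tested. The tissue difference in Treg minus that in Tconv was a contrast of the same fit.

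The text names the 12 largest differences in each direction among called genes whose arrays do not overlap, the 5 largest called members of each list in each direction, the 8 largest in each direction by the difference between Treg and Tconv, and genes of prior interest. Ifng, Tbx21, Mki67, Pdcd1, Plin2, S1pr1, Ikzf2, Ikzf4, Bhlhe40, Stat3, Prdm1, Egr3, Hk2, Csf1r, Gja1, Dgat2, Sparc, Col1a2, the Cd3 chains, Hspa8, Hsp90aa1 and the dim cell type markers were named after their values were seen. The members and lists were chosen with earlier results of these data known. Same-numbered Treg and Tconv arrays of 1 tissue deviated together (correlation 0.355 to 0.661), so tissue and replicate number also entered as a block, a choice made after seeing the data, and so were the counts of list members without single arrays. Fat and lymph node Treg arrays of the same number did not deviate together (correlation -0.209 to 0.094). Those of the same run of array file numbers correlated at 0.377, 0.094 and 0.0913. With the run as a block 5623 genes were called between fat and lymph node Treg, against 4329.

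Other settings were the deposited scale, median centring, 2 other filters on dim genes, a spread estimate with intensity trend, the mean of a gene's probe sets, blocks by replicate number and by run of array file numbers, the 6 arrays alone, and leaving out each array. The fit was tested on simulated data. The files give no detection calls or depth, so the number of arrays limits the precision. Promoter sequences came from RefSeq on GRCm38.p6. Figures were drawn with matplotlib 3.10.9.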

Additional observations from a re-analysis of the deposited data

Results flagged for a closer look

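The genes below were set apart because the tissue difference, fat minus lymph node, differed between Treg and Tconv by limma's test of the difference of differences, among the genes named by size or prior interest. Values are the difference in Treg minus the difference in Tconv, on the log2 scale, with n = 3 arrays in each of 4 groups.

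Genes with the more positive difference in Treg were led by Cxcl3 (6.77), AA467197 (6.03), Hpgd (4.40), Tmtc2 (4.34), 1700061F12Rik (4.17), Dmxl2 (4.03), Ccr1 (4.02) and Tox2 (3.94). Of these, Tox2 had the weakest support (adjusted p = 0.019), with a difference of 3.03 in Treg and -0.91 in Tconv. The adipose Treg genes Pparg, Il10 and Gata3 differed by 3.51, 3.39 and 2.39, and the chemokine gene Cxcl2 by 1.73. The stress and early response genes Atf3 and Fosb differed by 2.67 and 1.55.

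Hspa1a rose in both cell types but less in Treg, by -1.23 (adjusted p = 0.0459). Klrg1 also rose in both, with a difference of -2.02. Genes that fell further in Treg than in Tconv were Nsg2 (-1.87), H2-Ob (-2.28), 1110032F04Rik (-2.65), Gpr18 (-2.67), Evl (-2.86), Bach2 (-3.00), Myb (-3.33), Itgae (-3.64), Ifit1bl1 (-3.64), Fgf13 (-4.11), Bcl2 (-4.33) and Gm8369 (-4.37). Cxcr3 (-4.72), Fasl (-4.48), P2rx7 (-4.43) and Btbd11 (-4.08) fell in fat Treg and rose in fat Tconv. Socs2 (-4.62) rose in both, by 0.72 in Treg and 5.34 in Tconv.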

How the results depend on the processing

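On the deposited scale the comparison gave 7020 calls, 5842 higher and 1178 lower, and the Tconv comparison 5425 against 2860, where fat arrays have the higher medians. Of 4301 calls testable there, 3147 were kept. The difference between Treg and Tconv gave 1094 calls with the run block and 1447 with the replicate block within tissue, against 655. The block by replicate number alone, over arrays that share only a number, gave 4354 Treg calls and 692 for the difference. Leaving out 1 array gave 3419 to 4188 Treg calls (1560 to 2002 higher, 1859 to 2186 lower, 1583 to 1823 of at least 2-fold), 514 to 753 for the difference and 2163 to 2861 for Tconv. The remaining settings kept these counts within 1.5 times. Signs turned on the deposited scale for Gimap4 (0.054), Chordc1 (0.046), Tpsb2 (0.11), Slc4a1 (0.41), Rps18 (0.022) and Rps20 (0.10), and for Cd8a (-0.26) with the mean of its probe sets. The cause was not tested. Values near the bottom of the scale limit the size of the largest folds.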
